A study of Mus musculus with 2 samples.

Results

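Mir143 and Mir145a are the 2 microRNA genes of a single mouse cluster best known from smooth muscle, and they were followed here in gastrocnemius, the large muscle of the calf. They were chosen by name, as the GENCODE M21 genes with these symbols, and are 2 of the 2202 microRNA genes counted in each library. Both genes were found by their Ensembl identifiers, and both passed the minimum of 10 counts. The libraries were made from male B6CASTF1/J mice aged 2 months, hybrids of C57BL/6J with CAST/EiJ, and they hold RNA inserts shorter than 30 nt. All samples belong to 1 group with 2 libraries, labelled as biological replicates 1 and 2. The labels give each library its own tissue sample and mouse number, under a donor record that both share. With no second condition, the data show how abundant the pair was and how far the libraries differed, so the p-values below set one library against the other and measure no treatment.

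MicroRNAs are short RNAs, cut from hairpin precursors, that guide the silencing of messenger RNAs with matching sites. In mice, miR-143 and miR-145 are processed from a shared primary transcript whose promoter responds to serum response factor (SRF) and its coactivator myocardin, the regulators of the contractile programme of smooth muscle. miR-145 is known to repress Klf4, a factor that holds back contractile genes, and miR-143 to repress Elk1, which competes with myocardin for SRF. In a limb muscle, smooth muscle lies mainly in the walls of blood vessels. The tables count microRNA genes alone, so messenger RNA markers of smooth muscle were not analysed here and the name of the pair rests on prior knowledge. In tissue libraries, fewer cells of a type and less RNA per cell cannot be told apart.

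In mm10 with GENCODE M21, Mir143 (ENSMUSG00000065445.3) is a gene of 63 bases on the minus strand, at chr18:61649196-61649258. Mir145a (ENSMUSG00000065592.2) has 70 bases on the same strand, at chr18:61647825-61647894. Along the minus strand Mir143 comes first, and 1301 bases separate the genes, which together span 1434 bases. Neither lies within another annotated gene, exon or intron. Upstream of Mir143 ends the long non-coding RNA gene Carmn, on the same strand and 366 bases away. It is known in mouse from cardiac and smooth muscle cells. Beyond Mir145a, and on the opposite strand, ends Bvht (Braveheart), a long non-coding RNA known from cardiac commitment of mouse stem cells, 352 bases away. The nearest protein-coding gene is Il17b, 35628 bases from Mir143. These neighbours are not among the genes counted.

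Reads that match several places are absent from the deposited gene counts, and they made up 75.2% of all reads in replicate 1 and 74.4% in replicate 2. Genes whose sequence recurs may therefore be counted too low, and 1087 of the 2202 genes have a stretch of 20 or more bases in common with a microRNA gene elsewhere in the genome. Mir143 and Mir145a are not among them. The longest stretch that Mir143 has in common with any other microRNA gene is 11 bases, with Mir200c. For Mir145a it is 17 bases, with Mir145b, a paralog 7.37 Mb away on the same chromosome. Mir145b had 0 counts in both libraries, so its level may reach 4.70 CPM in replicate 1 or 1.32 CPM in replicate 2 (the limit of 3 counts; CPM are counts per 1000000 counts assigned to microRNA genes). The limits, like all intervals below, cover counting error only. CAST alleles were not analysed here, nor were copies that lie outside annotated microRNA genes.

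By assigned counts, which leave out reads that match several places, Mir143 was among the most abundant microRNA genes of the muscle. Mir145a was lower by more than an order of magnitude in both libraries. Mir143 had 76795 counts in replicate 1 and 180423 in replicate 2, of 638779 and 2272132 counts in all genes. Replicate 1 thus had 120222 CPM and replicate 2 had 79407 CPM, with a mean of 99814 ± 28860 CPM (SD, n = 2). Its share of the assigned counts was 12.0% in replicate 1 (exact Clopper-Pearson 95% interval 11.9 to 12.1%) and 7.94% in replicate 2 (7.91 to 7.98%). Mir145a had 1818 counts in replicate 1 and 4645 in replicate 2. That is 2846 and 2044 CPM, with a mean of 2445 ± 567 CPM. It took 0.285% of the assigned counts (0.272 to 0.298%) in replicate 1, against 0.204% (0.199 to 0.210%) in replicate 2. Both genes were higher in replicate 1, and for neither do the intervals of the libraries overlap. Of all reads, multi-mapping and unmapped ones included, Mir143 made up 2.07% in replicate 1 and 1.28% in replicate 2.

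**Figure D1:**
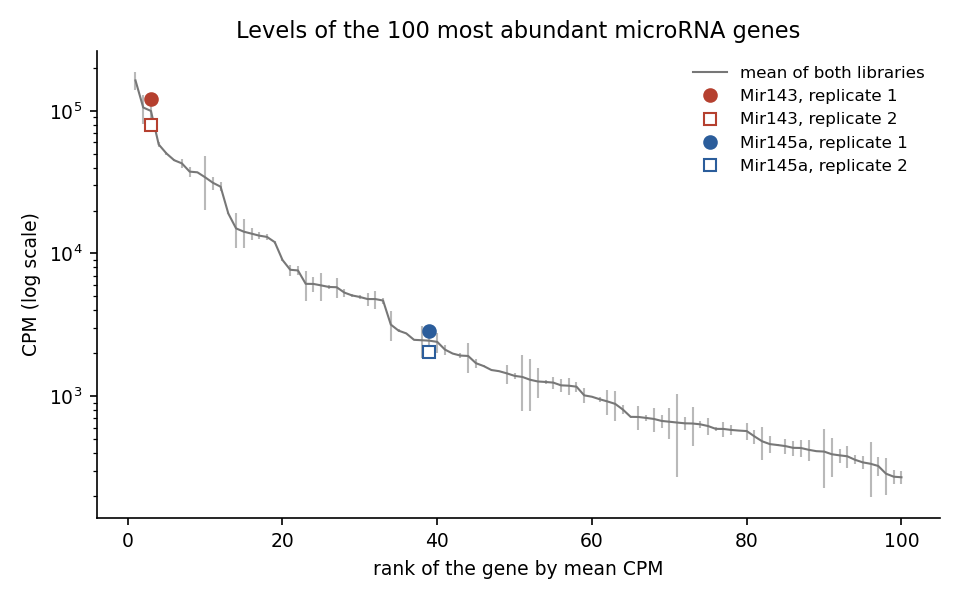
CPM (log scale) of the 100 most abundant microRNA genes against their rank by mean CPM; the line is the mean of both libraries, grey bars run from the lower to the higher library, and the symbols mark Mir143 and Mir145a in each library. Mir143 sits at rank 3 and Mir145a at rank 39, each with replicate 1 above replicate 2.

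By mean CPM, Mir143 ranked 3rd and Mir145a 39th of 2202 genes. Mir143 was 2nd in replicate 1 and 3rd in replicate 2, and Mir145a was 36th and 39th. Above Mir143 stood Mir378a, a microRNA from an intron of the metabolic coactivator gene Ppargc1b, and Mir126a, the microRNA of endothelial cells. Below it came Mir23a at 58132 ± 3389 CPM and Mir23b at 50261 ± 1245 CPM. The step from Mir143 to Mir23a was 1.72-fold in CPM, and in both libraries Mir143 lay above Mir23a. The order of Mir143 and Mir126a was not stable. Mir143 over Mir126a was 1.48 in replicate 1 and 0.612 in replicate 2, or 1.71 and 0.709 when counts were divided by gene length. Mir378a and both miR-23 genes share sequence with another gene and may be counted too low. The same holds for genes with shared sequence further down, and whether any of them exceeded Mir143 is not known. The ranks therefore describe assigned counts only. Mir143 alone outweighed, in mean CPM, the sum of the 519 least abundant of the 549 genes with any count.

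Around Mir145a the levels lay close together. Mir335, from the imprinted Mest gene, stood just above at 2480 ± 9.18 CPM, and Mir99b at 2463 ± 875 CPM. Below it were Mir140, a microRNA known from cartilage, at 2399 ± 538 CPM and Mir361 at 2118 ± 233 CPM. The range of Mir145a over the libraries overlaps that of each of these 4 genes. Its order with Mir335 and with Mir99b changed between the libraries. In both libraries Mir145a lay above Mir361 (2282 CPM in replicate 1 and 1953 in replicate 2) and, narrowly, above Mir140 (2779 and 2018 CPM). The order of these genes was not tested. The inserts are shorter than 30 nt, so a read covers part of a hairpin, and the tables give no read lengths or positions. Dividing counts by gene length placed Mir143 2nd and Mir145a 36th, at 117951 and 2601 length-scaled counts per 1000000.

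The pair was strongly unequal, and by a similar degree in both libraries. Mir143 had 42.2 times the counts of Mir145a in replicate 1 and 38.8 times in replicate 2 (40.5 ± 2.40, SD, n = 2). Per base of gene length the ratios were 46.9 and 43.2. Mir145a thus made up 2.31% of the counts of the pair in replicate 1 (95% interval 2.21 to 2.42%) and 2.51% in replicate 2 (2.44 to 2.58%). The tables do not separate the arms of a hairpin, so each value sums whatever the gene yields from both arms.

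Other microRNA clusters were uneven as well. Genes on the same strand with gaps of 10 kb or less formed 39 clusters with at least 2 genes detected, that is at 2 CPM or more in both libraries. The leading gene held a median of 85.4% of its cluster's counts, with a range of 40.8 to 99.9%. Mir143 held 97.6% ± 0.140 of its cluster, and 8 of the 39 clusters had a higher leading share, or 4 of 35 with gaps of 2 kb or less. All 8 contain genes that share sequence with another gene, and how many reads such genes lose was not measured. Among the 15 clusters with no such gene the median was 80.7%, and none had a higher leading share than Mir143. A second gene had to reach 2 CPM, which caps the leading share where a cluster's sum is low. Some of the 15, with sums such as 22.4 and 65.6 CPM, could therefore not have exceeded Mir143. Both medians include clusters capped in this way.

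The summed level of the pair, 123068 CPM in replicate 1 and 81451 CPM in replicate 2, was the highest of the 39 clusters. The next were the cluster of Mir23a and Mir27a, at 59766 CPM with 97.3% ± 0.420 from Mir23a, and that of Mir23b and Mir27b, at 54982 CPM with 91.4% ± 0.714 from Mir23b. Mir206, specific to skeletal muscle, held 99.9% of the cluster with Mir133b, which summed to 34218 CPM. Mir99a held 99.4% of its cluster with Mirlet7c-1, which summed to 31499 CPM. In these 4 clusters some genes share sequence with another gene, so their leading shares and sums are read as uncertain. That is not so for Mir30d and Mir30b, named after their values were seen, where Mir30d held 97.5% ± 0.101 and came closest to Mir143 among clusters without shared sequence.

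**Figure D2:**
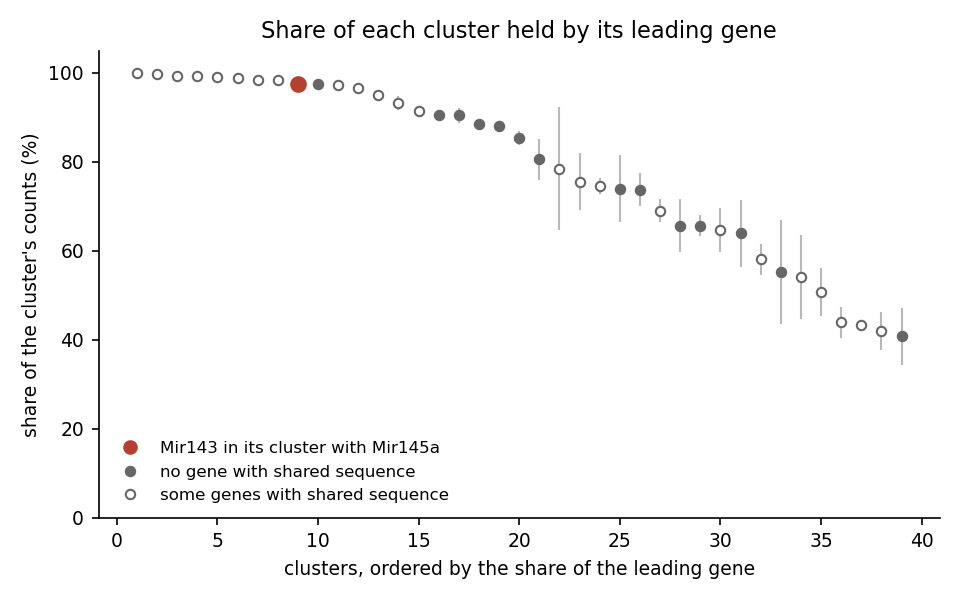
Share of a cluster's counts held by its leading gene, in percent, for the 39 clusters in falling order; points are means of both libraries, lines join the libraries, and open points mark clusters with a gene of shared sequence. Mir143 (97.6%) is the highest of the 15 clusters without shared sequence, where the median is 80.7%. Some clusters of low sum could not exceed it, because a second gene had to reach 2 CPM.

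Both members were higher in replicate 1 than in replicate 2, beyond counting error. Mir143 was 1.51-fold higher (95% interval of counting error 1.501 to 1.527, log2 0.60) and Mir145a 1.39-fold higher (1.32 to 1.47, log2 0.48). Both passed an exact two-sided binomial test of the counts with Benjamini-Hochberg adjustment over all 311 tested genes. The adjusted p was 2.50e-30 for Mir145a and too small to be written as a number for Mir143. Of all tested genes 17.4% were called higher in replicate 1, and of the 59 genes with a mean of 1000 CPM or more it was 32.2%. The calls over all tested genes were 54 higher and 72 lower in replicate 1, but 69 higher and 55 lower with TMM scaling. Deeply counted genes pass this test at small differences: 48 of the 59 were called in one direction or the other. The test sets these libraries against counting error and says nothing about mice in general.

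The distance of the members between the libraries was close to the average spread by 1 estimate and above it by another. edgeR put the common coefficient of variation, over 257 genes and with counting error taken off, at 25.4%. DESeq2's median of estimates made gene by gene was 10.2%. The coefficient of variation of the CPM was 28.9% for Mir143 and 23.2% for Mir145a. With the spread from edgeR counted as noise, edgeR's exact test called neither member, with unadjusted p of 0.254 for Mir143 and 0.364 for Mir145a and adjusted p of 1.0 for each. It called 1.29% of the 311 genes, and 22 genes had an unadjusted p under 0.05. That test takes its noise from the same 2 libraries and compares 1 with 1. In absolute log2 ratio, 100 of the 311 tested genes were at least as far from 0 as Mir143 and 134 at least as far as Mir145a, the members included. Among the 59 genes of 1000 CPM or more, where the median absolute log2 ratio was 0.23, the numbers were 13 and 14. On the side of replicate 1 alone, 7 of the 59 had a log2 ratio at least as high as Mir143 and 8 at least as high as Mir145a, the members included.

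**Figure D3:**
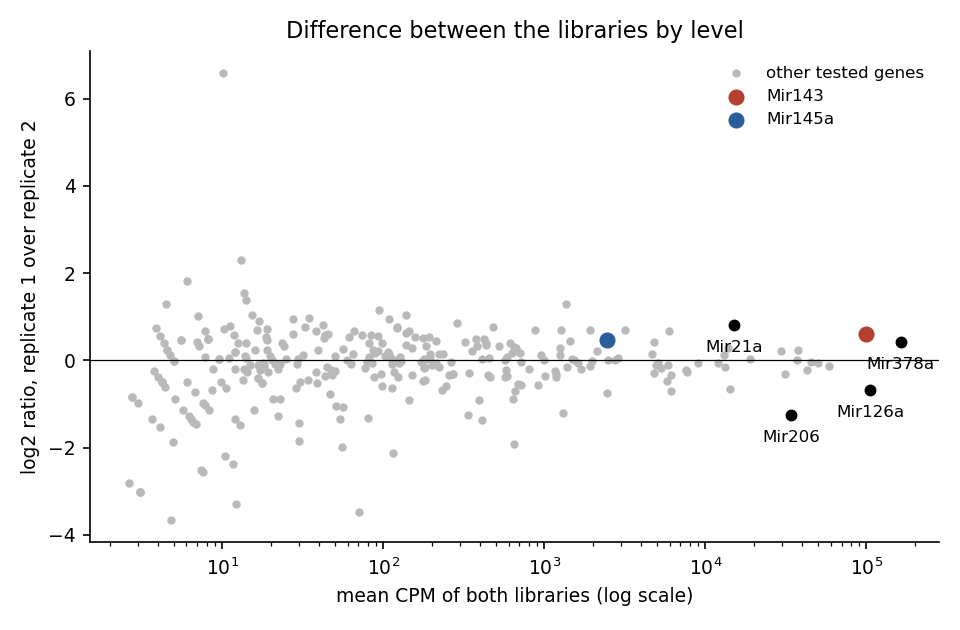
log2 ratio of replicate 1 over replicate 2 against mean CPM (log scale) for the 311 tested genes, with the members in colour and 4 other abundant genes named. Mir143 (0.60) and Mir145a (0.48) lie above 0, while Mir126a (-0.68) and Mir206 (-1.24) lie below.

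The ratio of the members to each other differed less between the libraries than the level of either. Mir145a over Mir143 changed by -0.12 on the log2 scale in replicate 1 relative to replicate 2. The change was small but larger than counting error, with an adjusted p of 0.00893 by Fisher's exact test (two-sided) over 83 neighbouring pairs of the same clusters. Of these pairs 32.5% were called. An absolute change at least as large as that of Mir145a and Mir143 was found in 69 of the 83, itself included, and the median was 0.40. In 45 of the 83 pairs, both genes lay on the same side of 0. The 83 include pairs with a gene of few counts, where counting error alone can give such changes. Among the 8 pairs with both genes at 1000 CPM or more, the median absolute change was 0.21. Of these 8 pairs, 6 were called and 2 had a smaller change than this pair, Mir379 with Mir411 and Mirlet7e with Mir125a. These 4 genes were named after their values were seen.

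**Figure D4:**
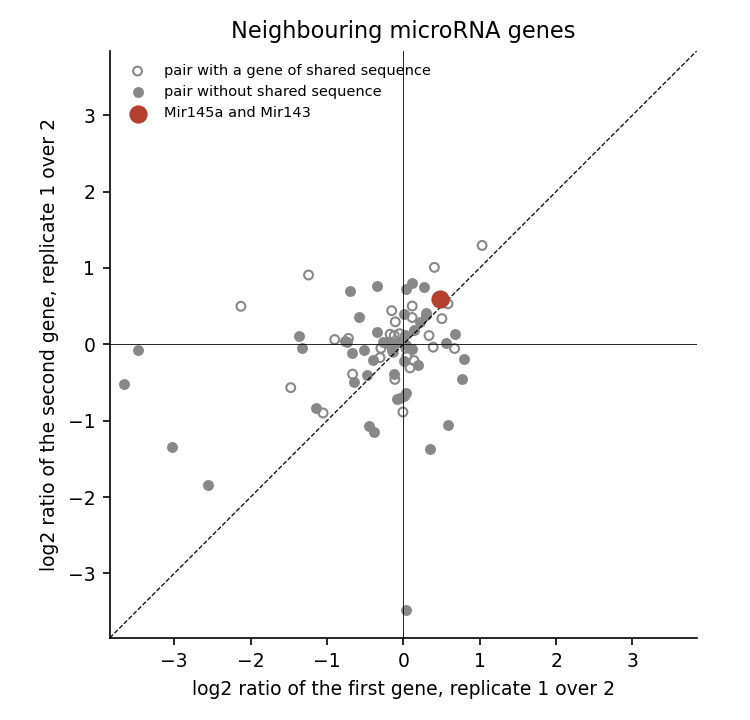
log2 ratio of replicate 1 over replicate 2 for the 83 pairs of neighbouring microRNA genes, the first gene in coordinate order on the horizontal axis and the second on the vertical; the dashed line marks equal ratios. Mir145a (0.48) and Mir143 (0.60) lie near that line in the upper right.

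The genes whose difference between the libraries was most like that of the members came from many other loci. Likeness was measured as the distance in log2 ratio over the 2 libraries among the other genes of 1000 CPM or more. Nearest to Mir143 were Mir29a (log2 0.67), Mir101b (0.69), Mir744 (0.69), Mir101a (0.70) and Mir140 (0.46). Mir29a represses collagen transcripts. Nearest to Mir145a were Mir140 (0.46), Mir15a (0.44), Mir378a (0.42), Mir451a (0.41) and Mir30d (0.29). Mir451a is the microRNA of red blood cells. With 1 ratio per gene, such likeness is a description of 2 libraries.

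Lists of microRNAs from other cell types of muscle differed between the libraries in either direction. The endothelial list, carried by Mir126a with Mir126b at 0 and 1 counts, held 81286 CPM in replicate 1 and 129798 CPM in replicate 2, so it was lower where the smooth muscle pair was higher. The pair over the endothelial list was 1.51 in replicate 1 and 0.628 in replicate 2. The skeletal muscle list of 9 genes held 22884 CPM in replicate 1 and 52158 CPM in replicate 2, with 4 genes lower in replicate 1 and 5 not called. Over all tested genes 23.2% were called lower and 17.4% higher in replicate 1, and the counts of this and the following lists stand beside these shares. Mir206 gave most of it, at 20325 and 48078 CPM, a ratio of 0.423 (0.415 to 0.431). The 5 genes not called, those of miR-1 and miR-133, share sequence with a gene elsewhere and may be counted too low. Mir486 overlaps a microRNA gene on the opposite strand, and sequence shared between overlapping genes was not examined. No ratio of the pair to this list is therefore given.

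The lists of blood and other cell types held fewer assigned counts than the pair. The erythroid list held 6176 CPM in replicate 1 and 4688 CPM in replicate 2, and both its genes, Mir451a and Mir144, were higher in replicate 1. With lists of so few genes, these counts are read as values of single genes. The leukocyte list held 2542 and 2889 CPM, with 1 gene higher, 2 lower and 1 not called. The fibroblast list held 626 and 895 CPM, with Mir199b higher, Mir214 lower, Mir199a-2 not called and Mir199a-1 at 0 in both. The 3 miR-199 genes share sequence with another gene, so reads that match several places are missing from this sum, and the 0 sets no limit. The epithelial list held 225 and 215 CPM, where 1 of 5 tested genes was higher. The part of these differences in the members' ratio was not tested.

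**Figure D5:**
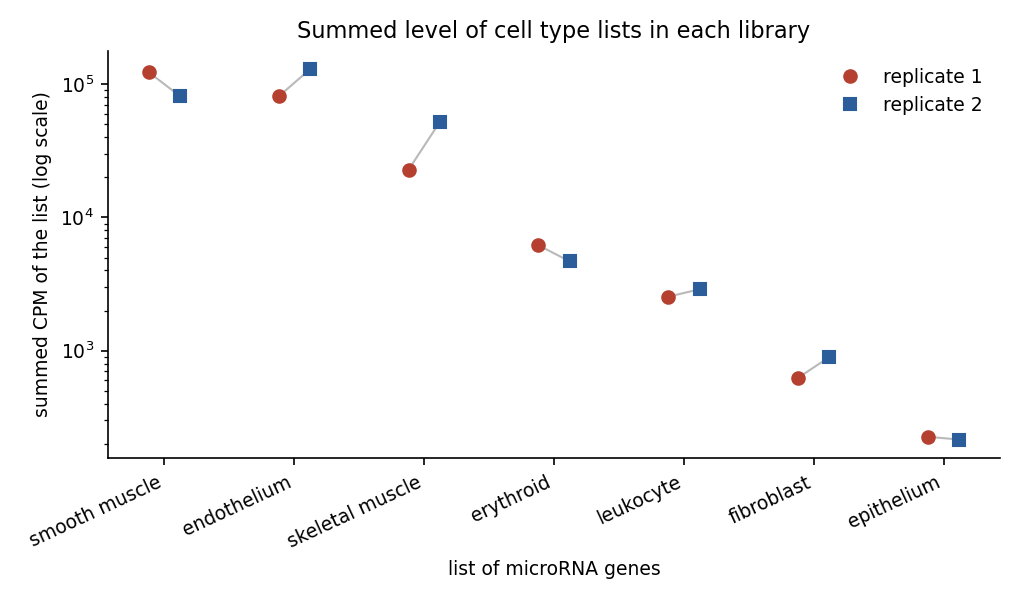
Summed CPM (log scale) of the microRNA lists of 7 cell types in replicate 1 (circles) and replicate 2 (squares). Smooth muscle (Mir143 and Mir145a) is higher in replicate 1, at 123068 against 81451 CPM, whereas endothelium and skeletal muscle are lower there.

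MicroRNAs linked to the phenotype of smooth muscle by earlier work had calls in both directions, at shares near those of all tested genes. This list of 11 genes held 25115 CPM in replicate 1 and 17585 CPM in replicate 2. Of 10 tested genes 2 were higher in replicate 1 (17.4% of all tested genes), 3 were lower (23.2% of all) and 5 were not called, and the median log2 ratio was -0.16, against -0.04 over all tested genes. Mir21a, which in human cells promotes contractile genes downstream of TGF-beta and BMP signals, gave most of the sum. It had 19072 CPM in replicate 1 and 10899 CPM in replicate 2, a ratio of 1.75 (1.71 to 1.79). Mir24-2 was the other gene called higher, at 443 and 313 CPM, and it shares sequence with Mir24-1, which had 43.8 and 51.5 CPM and was not called. Called lower in replicate 1 were Mir10a (4988 and 5642 CPM), Mir26a-2 (29.7 and 77.5 CPM) and Mir146 (153 and 211 CPM). Mir26a-2 and Mir146 share sequence with another gene.

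Mir221 and Mir222, known from rat vessels to drive proliferation of smooth muscle, were low beside the pair. Mir221 had 210 CPM in replicate 1 and 233 CPM in replicate 2, and Mir222 had 21.9 and 23.8 CPM. Neither was called. Mir26a-1 (37.6 and 48.9 CPM) and Mir204 (111 and 84.1 CPM) were not called either, and Mir31, at 3 and 2 counts, was not tested.

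In striated muscle SRF also acts on genes for miR-1 and for miR-133. None of the 4 genes listed was called. Mir1a-2 had 261 CPM in replicate 1 and 269 CPM in replicate 2, and Mir1a-1, Mir133a-1 and Mir133a-2 lay between 4.84 and 15.7 CPM. All 4 share sequence with another gene of the group, so these values leave out reads that match several genes and set no ratio to the pair.

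All counts of the members lay on the strand of the gene. Both had 0 counts on the opposite strand in both libraries, which allows, relative to the counts on the gene's strand, up to 0.00391% for Mir143 in replicate 1 and 0.00166% in replicate 2. For Mir145a the limits are 0.165% and 0.0646%. When strand was ignored, the counts of both genes stayed the same, but their share of the total grew to 17.2% in replicate 1 and 11.3% in replicate 2 for Mir143. In that column reads over overlapping genes on opposite strands are counted as ambiguous and leave the total.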

How the data were processed

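Small RNA libraries of 2 gastrocnemius samples were analysed from raw counts per microRNA gene, deposited as 1 table per library. Per the file headers and the texts deposited with them, the counts refer to mm10 and GENCODE M21. Neither aligner nor counter is named (not given in the sources used here). The tables have 3 unnamed count columns. The second, with the larger total of the strand columns, was read as the strand of the gene and used throughout. Left out of the totals were rows without a gene: multi-mapping reads (75.2% in replicate 1 and 74.4% in replicate 2), unmapped reads (5.97% and 6.93%) and reads with no feature (1.62% and 2.48%). Replicate 2 held 3.56 times the counts of replicate 1 and gives narrower intervals. Reads carry no molecular identifiers and PCR copies are not independent, so intervals cover counting error only.

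All 2202 identifiers matched GENCODE M21, which gave symbols, positions (1-based) and hairpin sequences. Sequences of the members are not printed here. Mir146a carries the symbol Mir146 there. Log2 ratios are replicate 1 over replicate 2 with 0.5 added to each count. Genes reaching 10 counts in the libraries together were tested with an exact binomial test, adjusted by Benjamini-Hochberg over all of them, at 0.05. Neighbouring pairs were tested with Fisher's exact test. Both steps were tested on simulated data. edgeR's quasi-likelihood test needs groups, so edgeR 4.0.16 gave the common dispersion in an intercept-only model (genes kept by filterByExpr) and an exact test at that dispersion. Other software was R 4.3.3, DESeq2 1.42.0, Python 3.11.15, scipy 1.17.1, pandas 2.3.3, numpy 2.4.6 and matplotlib 3.10.9.

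The members and lists were chosen with earlier results of these data known. Genes named are the members, the 2 genes above and below each in mean CPM, and the 5 nearest in log2 ratio. Also named are the 2 leading genes of the 5 clusters with the highest sums, and the genes of the lists. Alternatives were the strand-blind column, other totals, TMM and DESeq2 scaling, other minimum counts, other cluster distances, division by gene length, and each library left out.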

Additional observations from a re-analysis of the deposited data

How the results depend on the processing

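The directions of the members' ratios did not reverse under any alternative run. The call of both members was lost under the exact test of edgeR, at log2 0.60 for Mir143 and 0.48 for Mir145a with adjusted p of 1.0 for each. That test treats the spread between the libraries as noise. It called 1 gene higher and 3 lower in replicate 1, against 54 and 72 with the binomial test. Under the other alternatives the log2 ratio stayed between 0.60 and 0.69 for Mir143 and between 0.48 and 0.57 for Mir145a, all called. TMM scaling moved every log2 ratio by 0.08 and gave 69 genes higher and 55 lower, and all reads as the total moved them by 0.09 and gave 72 and 54. The balance of directions over all genes is thus not fixed. Both members stayed higher in replicate 1, but shifts of this size could not have reversed their ratios. Other minimum counts left the ratios as they were, so the kept direction is no sign of stability.

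The level depends on the total it is divided by. Mir143 had 142565 CPM in the strand-blind column, 144878 CPM of the counts of genes without shared sequence and 16764 CPM of all reads. For Mir145a these were 3492, 3545 and 410 CPM. With each library left out in turn, Mir143 lay between 79407 and 120222 CPM, Mir145a between 2044 and 2846 CPM, and the share of Mir143 in its cluster between 97.5 and 97.7%. Mir143 ranked 1st to 3rd and Mir145a 31st to 39th over all alternatives, which do not all rank the same genes. The 1st place is in the strand-blind column alone, where the counts of Mir143 are unchanged. There 191677 reads in replicate 1 and 680731 in replicate 2 are counted as ambiguous and leave the total. The 31st place is among the 1115 genes without shared sequence. Where Mir378a was taken out of the total, it was left out of the ranking too. The change of Mir145a over Mir143 was -0.12 in every alternative, with adjusted p by Fisher's exact test between 0.00672 and 0.00956. These alternatives left the counts of both members as they were, so the change could not move. Only the set of pairs in the adjustment differed, and the equal values are no sign of stability. The median leading share of clusters was 78.5% in the strand-blind column, 78.5% with gaps of 2 kb or less, and 80.7% without shared sequence, and between 81.8 and 88.1% with each library left out. Clusters above Mir143 in leading share numbered 4 with gaps of 2 kb or less and 10 with 50 kb. The spread was 10.2% as DESeq2's median over genes, which is another quantity than a common dispersion. The causes of these shifts were not tested. The genes of 1000 CPM or more and the pairs without shared sequence (adjusted p 0.00874) were added after seeing the data. No ratio between libraries exists with 1 of them left out. No paired analysis was possible because all samples form 1 group.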
